A study of Saccharomyces cerevisiae with 7 samples.

Results

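The genes described here encode the pyruvate dehydrogenase complex, the enzymes of the tricarboxylic acid (TCA) and glyoxylate cycles with their isozymes, and the inner-membrane carriers that move metabolites in and out of the mitochondria of budding yeast. They were taken by gene symbol from a list of 36 names. All 36 were measured, among 5879 features tested, of which 5344 are named genes. Pyruvate dehydrogenase turns pyruvate into acetyl-CoA, which the TCA cycle oxidises in the mitochondrial matrix. The glyoxylate cycle shares several of these steps but skips the decarboxylations, so that cells can build sugars from acetate or ethanol, and many of these genes are known to be repressed by glucose. The carriers exchange citrate, malate, 2-oxoglutarate, oxaloacetate, ADP, ATP and phosphate between the matrix and the cytosol.

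Messenger RNA of deletion mutants in the SWR complex (SWR-C), a chromatin remodeller that places the histone variant Htz1 in nucleosomes, was compared with that of wild type on dual-colour arrays. Arp6 is an actin-related protein of the complex and Swr1 its ATPase. The groups were arp6Δ, with 4 arrays, and swr1Δ, with 3 arrays, both in the W303 strain background, and each array held RNA of 1 deletion strain in the Cy5 channel and of W303 wild type in the Cy3 channel. Per the labels all strains grew exponentially in YPD with 2% glucose at 25 °C and were taken at an optical density of 1. Values below are log2 ratios, mutant to wild type, so that -1 is a 2-fold lower level in the mutant, and means are given ± SD. A gene was called when its adjusted p in limma was under 0.05. Ratios were centred on each array, so a change in total mRNA per cell cannot be seen in them.

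The deleted genes were read first. ARP6 had log2 ratios of -1.28, -1.26, -1.19 and -0.63 on the arp6Δ arrays, and SWR1 had -0.42, -1.02 and -1.01 on the swr1Δ arrays. Their sign also served to settle the direction of the ratios. The arp6Δ arrays varied far more than the swr1Δ arrays: the median SD of a feature was 0.52 in arp6Δ and 0.20 in swr1Δ, and 40.2% of all values on arp6Δ replicate 1 lay beyond 2-fold, against 15.8% to 20.2% on arp6Δ replicates 2 to 4 and 1.43% to 5.50% in swr1Δ. Over all features, replicates 1 and 2 of arp6Δ correlated at 0.67 and replicates 3 and 4 at 0.85, while correlations across these pairs were 0.26 to 0.37. In 4 stretches of the list of systematic names, holding 723 of 5379 genes, the values of arp6Δ replicates 1 and 2 matched those of replicates 3 and 4 better when moved by 1 or 2 genes. The members ICL1, PDA1, LPD1 and KGD1 lie in these stretches, and for them both readings are given. KGD2, LPD1 and SFC1 had no value on arp6Δ replicates 1 and 2.

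In arp6Δ the median member was below wild type, and the 3 malate dehydrogenases were the ones called. Lower calls were 3 of 36 members, 8.33%, against 3.27% of all features, and higher calls were 0 of 36, against 2.09% of all features. The median of the members' mean log2 ratios was -0.61 in arp6Δ, against -0.02 for all features. In swr1Δ the members were near wild type with a median of 0.14, against 0.00 for all features. Lower calls in swr1Δ were 1 of 36 members, 2.78%, against 10.9% of all features, and higher calls were 0 of 36, against 11.2%. The 0 higher calls in both mutants are those of limma at the adjusted threshold. At an unadjusted p under 0.05, in either direction, 16 members passed in arp6Δ (44.4%), against 29.4% of all features, and 8 in swr1Δ (22.2%), against 41.6%.

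**Figure D1:**
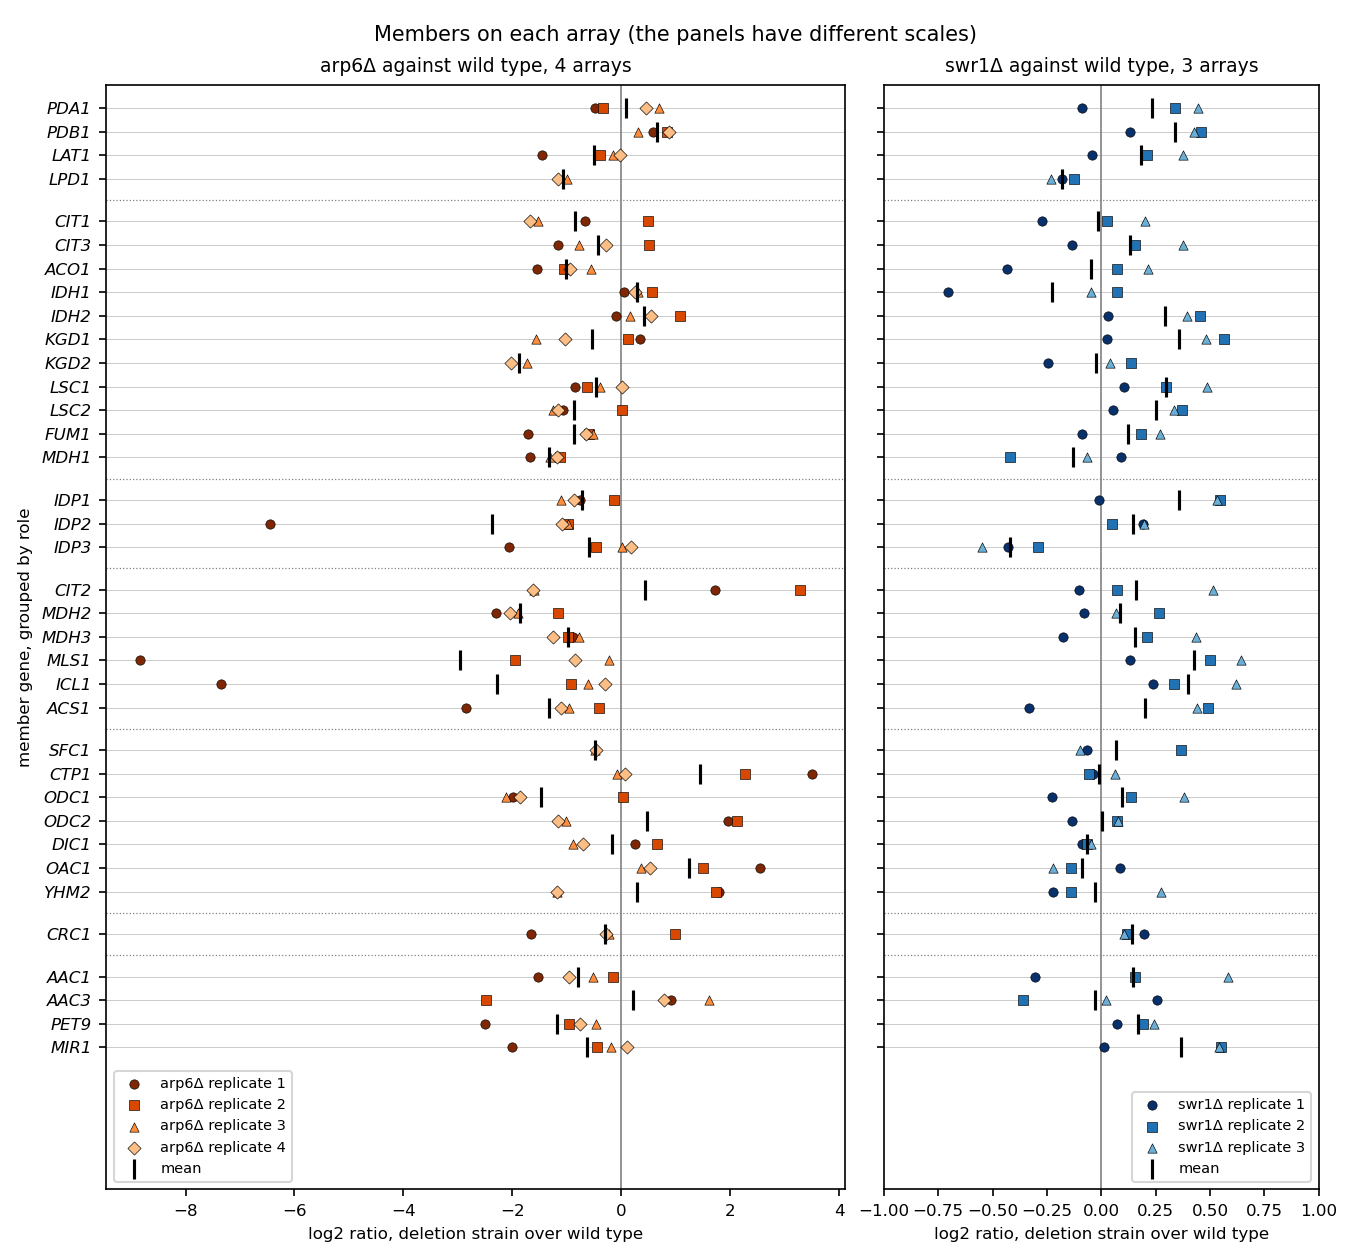
Log2 ratios over wild type of the 36 members, grouped by role from pyruvate dehydrogenase at the top to the ADP/ATP and phosphate carriers at the bottom, in arp6Δ (left, 4 arrays) and swr1Δ (right, 3 arrays, on a narrower scale). Each symbol is 1 array and the upright bar is the mean. MLS1 on arp6Δ replicate 1 is the lowest value, at -8.84, while no member passes 2-fold on any swr1Δ array.

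The direction on single arrays shows the same picture without a model. Among the 33 members with a value on all 4 arp6Δ arrays, 13 were below 0 on every one (39.4%), against 19.8% of all features with 4 values. These were AAC1, ACO1, ACS1, FUM1, ICL1, IDP1, IDP2, LAT1, MDH1, MDH2, MDH3, MLS1 and PET9. IDH1, OAC1 and PDB1 were above 0 on all 4 (9.09%), against 20.6% of all features. These counts are of the values as deposited. With the displaced stretches moved back, ICL1 was no longer below 0 on all 4 and PDA1 was above 0 on all 4. LPD1 then had a value on all 4 arrays and was below 0 on each. In swr1Δ, 3 of 36 members were below 0 on all 3 arrays (8.33%), against 31.5% of all features, and 11 were above 0 on all 3 (30.6%), against 30.8%. The 3 were DIC1, IDP3 and LPD1. On the arp6Δ arrays 17 of 33, 5 of 33, 11 of 36 and 14 of 36 members lay below -1, in the order of the replicates, against 20.4%, 11.2%, 10.5% and 9.35% of all features. Above 1 lay 5, 6, 1 and 0 members, against 19.7%, 8.89%, 7.85% and 6.49% of all features, so on replicate 2 more members lay above 1 than below -1.

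Malate dehydrogenase interconverts malate and oxaloacetate with NAD, and yeast has 1 isozyme in the mitochondria (MDH1, YKL085W), 1 in the cytosol (MDH2, YOL126C) and 1 in peroxisomes (MDH3, YDL078C). MDH1 had log2 ratios of -1.68, -1.13, -1.30 and -1.19 on the 4 arp6Δ arrays and of 0.09, -0.42 and -0.07 on the 3 swr1Δ arrays. MDH2, the isozyme used in the synthesis of glucose from small precursors, had -2.31, -1.16, -1.89 and -2.04 in arp6Δ and -0.08, 0.26 and 0.07 in swr1Δ. MDH3, which serves fatty acid oxidation and the glyoxylate cycle, had -0.88, -0.98, -0.78 and -1.25 in arp6Δ and -0.18, 0.21 and 0.44 in swr1Δ. For each of the 3 genes every arp6Δ value lay below every swr1Δ value. The mean of MDH1 in arp6Δ was -1.32 ± 0.25, 2.50-fold lower than wild type (adjusted p = 0.032). MDH2 was 3.61-fold lower at -1.85 ± 0.49 (adjusted p = 0.0292), and MDH3 1.96-fold lower at -0.97 ± 0.20 (adjusted p = 0.0472). In swr1Δ the means were -0.13 ± 0.26 for MDH1, 0.08 ± 0.17 for MDH2 and 0.16 ± 0.31 for MDH3, none of them called.

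The calls of the malate dehydrogenases depended on which arp6Δ arrays entered the fit. With any 1 of the 4 left out, adjusted p was 0.0518 to 0.12 for MDH1, 0.0507 to 0.115 for MDH2 and 0.0679 to 0.192 for MDH3, while the mean log2 ratios were -1.39 to -1.21, -2.08 to -1.70 and -1.04 to -0.88. With replicates 1 and 2, and 3 and 4, treated as correlated pairs, adjusted p was 0.0858 for MDH1, 0.0743 for MDH2 and 0.13 for MDH3. With replicates 3 and 4 alone, a choice made after seeing the data, all 3 were called (adjusted p = 0.000165, 4.19e-06 and 0.00112), and with replicates 1 and 2 alone MDH2 was (0.0495) while MDH1 and MDH3 were not (0.0724 and 0.18). With 1 spread estimated over both mutants, adjusted p was 0.00241, 0.0016 and 0.00588, and under that fit 13 members were called lower (36.1%), against 13.6% of all features, and 2 were called higher (5.56%), against 13.2%. The 13 were AAC1, ACO1, ACS1, FUM1, IDP1, KGD2, LPD1, LSC2, MDH1, MDH2, MDH3, ODC1 and PET9, and the 2 were OAC1 and PDB1.

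**Figure D2:**
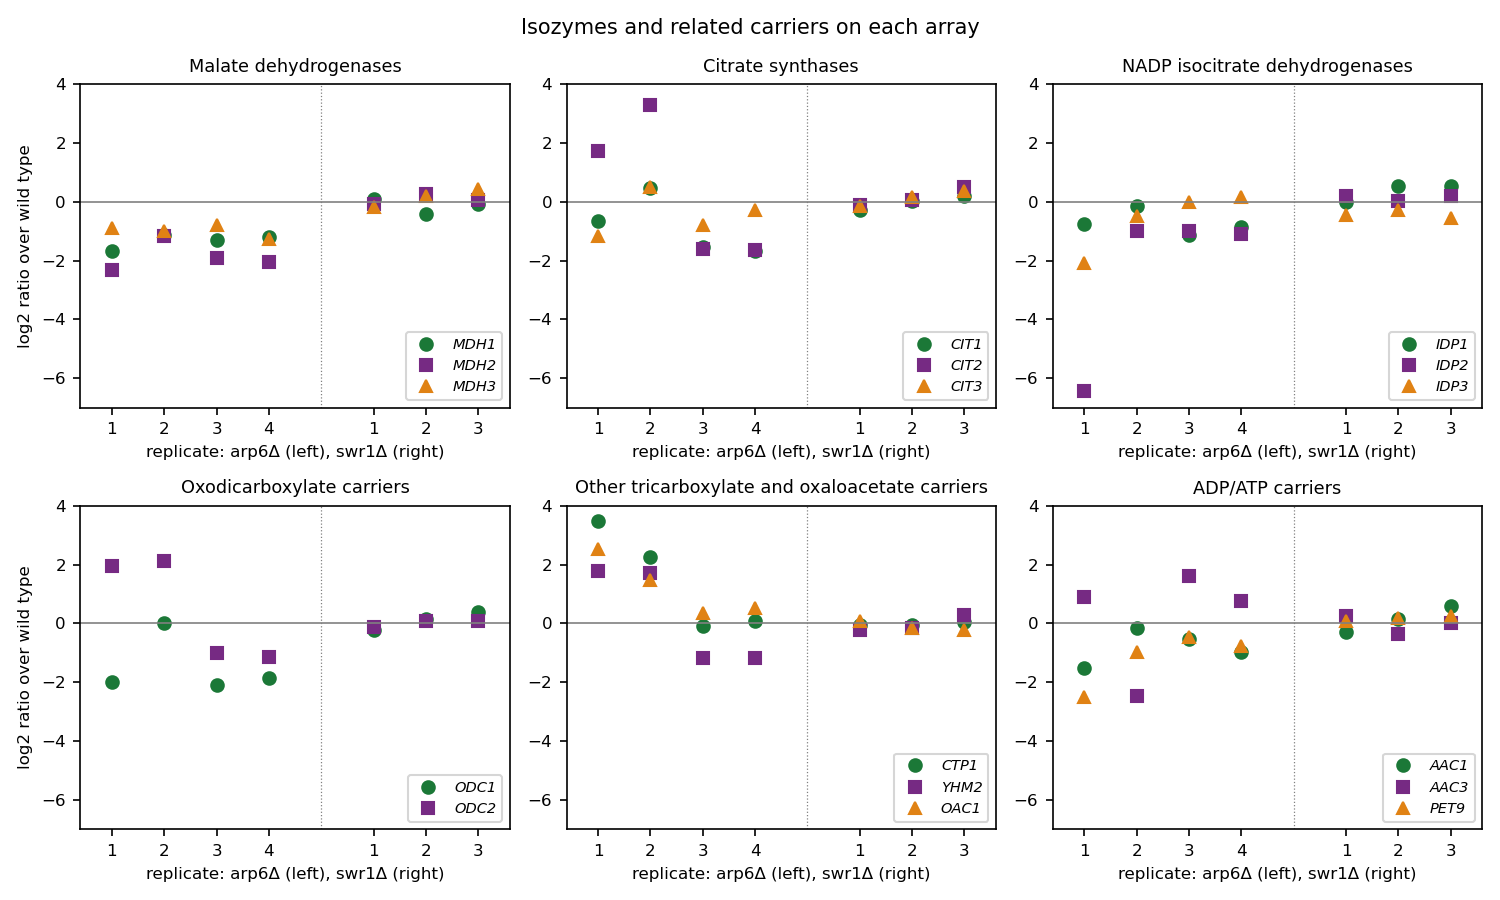
Log2 ratios over wild type of isozyme sets and related carriers, with the 4 arp6Δ replicates left of the 3 swr1Δ replicates in each panel and 1 symbol per gene. The malate dehydrogenases lie at -0.78 or below on every arp6Δ array, whereas CIT2, ODC2 and YHM2 lie above 1 on arp6Δ replicates 1 and 2 and below -1 on replicates 3 and 4.

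Pyruvate dehydrogenase members differed among themselves in arp6Δ. PDB1, the beta subunit of the first enzyme, had log2 ratios of 0.58, 0.83, 0.31 and 0.88 in arp6Δ and of 0.13, 0.46 and 0.42 in swr1Δ. It was above wild type on all 7 arrays, with a mean of 0.65 ± 0.26 in arp6Δ (adjusted p = 0.105) and 0.34 ± 0.18 in swr1Δ. PDA1, the alpha subunit of the same enzyme, had -0.48, -0.33, 0.70 and 0.46 in arp6Δ as deposited, and 1.24 and 0.55 on replicates 1 and 2 when the displaced stretch was moved back, against -0.09, 0.34 and 0.45 in swr1Δ. Moved back, PDA1 was above wild type on all 4 arp6Δ arrays, with a mean of 0.74 (adjusted p = 0.0876). LAT1, the acetyltransferase core of the complex, had -1.45, -0.39, -0.16 and -0.02 in arp6Δ, a mean of -0.50 ± 0.65 that was -0.19 without replicate 1, and averaged 0.18 ± 0.21 in swr1Δ. LPD1 encodes dihydrolipoamide dehydrogenase, which pyruvate and 2-oxoglutarate dehydrogenase share. LPD1 had -0.99 and -1.16 on arp6Δ replicates 3 and 4, against -0.18, -0.13 and -0.23 in swr1Δ, and -1.63 and -0.71 on arp6Δ replicates 1 and 2 when moved back. The mean of LPD1 in arp6Δ was -1.07 over 2 arrays (adjusted p = 0.12) and -1.12 over 4 arrays with the values moved back (adjusted p = 0.0433).

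Of the 11 mitochondrial TCA members only MDH1 was called in arp6Δ. Their median log2 ratios on the 4 arrays were -0.95, 0.06, -0.77 and -0.93, without KGD2 on replicates 1 and 2. Both condensing enzymes of the matrix, CIT1 and CIT3, split by array. CIT1, the main mitochondrial citrate synthase, had log2 ratios of -0.66, 0.49, -1.53 and -1.68 in arp6Δ and of -0.27, 0.03 and 0.20 in swr1Δ. CIT3, a minor mitochondrial form, had -1.15, 0.52, -0.77 and -0.27 in arp6Δ and -0.14, 0.15 and 0.37 in swr1Δ. Only arp6Δ replicate 2 was above 0 for both. ACO1, aconitase, was below 0 on all 4 arp6Δ arrays, at -1.55 to -0.55 with a mean of -1.02 ± 0.41 (adjusted p = 0.057), and averaged -0.05 ± 0.34 in swr1Δ.

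The NAD-dependent isocitrate dehydrogenase was near or above wild type on the arp6Δ arrays. IDH1, its regulatory subunit, had log2 ratios of 0.04, 0.57, 0.31 and 0.25 in arp6Δ and of -0.71, 0.07 and -0.05 in swr1Δ. IDH2, the catalytic subunit, had -0.10, 1.08, 0.16 and 0.55 in arp6Δ and 0.03, 0.45 and 0.39 in swr1Δ. The lowest arp6Δ value of either gene was -0.10, and neither was called in either mutant.

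The 2-oxoglutarate dehydrogenase complex, the next step, had its second subunit among the lowest members. KGD2, the succinyltransferase, had log2 ratios of -1.74 and -2.02 on arp6Δ replicates 3 and 4, against -0.24, 0.14 and 0.04 in swr1Δ. The mean of KGD2 in arp6Δ was -1.88 over 2 arrays, with an adjusted p of 0.0536, just outside the threshold. KGD1, the oxoglutarate-decarboxylating subunit, had 0.34, 0.12, -1.57 and -1.03 in arp6Δ as deposited, and 0.02, 0.57 and 0.48 in swr1Δ. With the displaced stretch moved back, KGD1 had no value on arp6Δ replicates 1 and 2, and its mean over replicates 3 and 4 was -1.30 (adjusted p = 0.0911).

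Among the members of the later steps of the cycle, MDH1 in arp6Δ was the only call. Succinate dehydrogenase is not among the members and is given with the other lists below. LSC1, the alpha subunit of succinyl-CoA ligase, had log2 ratios of -0.85, -0.63, -0.39 and 0.01 in arp6Δ and of 0.10, 0.30 and 0.49 in swr1Δ. LSC2, its beta subunit, had -1.06, 0.01, -1.26 and -1.16 in arp6Δ and 0.05, 0.37 and 0.34 in swr1Δ. All arp6Δ values of both subunits were below all swr1Δ values. FUM1, fumarase, averaged -0.87 ± 0.57 in arp6Δ (adjusted p = 0.0986) and 0.12 ± 0.19 in swr1Δ, with every arp6Δ array below 0.

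The NADP-dependent isocitrate dehydrogenases gave the 1 member called in swr1Δ. IDP3, the peroxisomal form, which supplies NADPH for the breakdown of unsaturated fatty acids, had log2 ratios of -0.43, -0.29 and -0.55 on the 3 swr1Δ arrays, a mean of -0.42 ± 0.13 (adjusted p = 0.0429). In arp6Δ, IDP3 had -2.07, -0.47, 0.01 and 0.18, with a mean of -0.59 that was -0.09 without replicate 1. The swr1Δ values were close together and all below 0, whereas the arp6Δ values lay on both sides of 0. Without swr1Δ replicate 1 the IDP3 call held (adjusted p = 0.00602), without replicate 2 or 3 it did not (0.262 and 0.204), and it was absent with a spread shared by both mutants (0.691). IDP1, the mitochondrial form, had -0.76, -0.13, -1.11 and -0.86 in arp6Δ and -0.01, 0.55 and 0.53 in swr1Δ, so the 2 sets of arrays did not overlap. IDP2, the cytosolic form, had -6.45, -0.98, -0.99 and -1.09 in arp6Δ and 0.19, 0.05 and 0.20 in swr1Δ. Its arp6Δ mean of -2.38 ± 2.72 rests on replicate 1, and without that array it was -1.02 (adjusted p = 0.0604).

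The 2 enzymes particular to the glyoxylate cycle had the lowest values of any member, both on arp6Δ replicate 1. Malate synthase, MLS1, which joins glyoxylate to acetyl-CoA, had log2 ratios of -8.84, -1.96, -0.23 and -0.86 in arp6Δ and of 0.13, 0.50 and 0.64 in swr1Δ. Isocitrate lyase, ICL1, which makes the glyoxylate, had -7.34, -0.92, -0.62 and -0.29 in arp6Δ as deposited and 0.24, 0.33 and 0.62 in swr1Δ. Both were below 0 on every arp6Δ array and above 0 on every swr1Δ array. MLS1 had the lowest mean of the members in arp6Δ, -2.97 ± 3.98, and the highest in swr1Δ, 0.43 ± 0.26. Neither gene was called in arp6Δ (adjusted p = 0.203 for MLS1 and 0.238 for ICL1), and in swr1Δ both were near the threshold (0.0603 and 0.0575). Without replicate 1 the arp6Δ means were -1.01 for MLS1 and -0.61 for ICL1. Moved back, ICL1 had -0.33 and 0.43 on arp6Δ replicates 1 and 2 and a mean of -0.20 (adjusted p = 0.603). ICL1 lies in a stretch of 470 genes that was found as a whole, and which of its readings is right is not settled. ACS1, the acetyl-CoA synthetase that is repressed by glucose, was also lowest on arp6Δ replicate 1, at -2.86, and averaged -1.33 ± 1.06 in arp6Δ (adjusted p = 0.0948, and a mean of -0.82 without replicate 1) and 0.20 ± 0.46 in swr1Δ.

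CIT2, the peroxisomal citrate synthase of the glyoxylate cycle and a known target of the retrograde pathway from mitochondria to nucleus, differed in sign between arrays. It had log2 ratios of 1.72, 3.29, -1.61 and -1.62 in arp6Δ and of -0.10, 0.07 and 0.51 in swr1Δ. CIT2 was thus far above wild type on arp6Δ replicates 1 and 2 and far below it on replicates 3 and 4, and its mean of 0.44 ± 2.46 describes no single array.

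Some carriers for di- and tricarboxylates were also higher on arp6Δ replicates 1 and 2 than on replicates 3 and 4. YHM2 and DIC1 changed sign between these pairs of arrays, as CIT2 did, whereas OAC1 stayed above 0 on all 4. CTP1, the citrate carrier, had log2 ratios of 3.50, 2.28, -0.07 and 0.08 in arp6Δ and of -0.04, -0.06 and 0.06 in swr1Δ. YHM2, which exchanges citrate for 2-oxoglutarate, had 1.80, 1.73, -1.19 and -1.18 in arp6Δ and -0.22, -0.14 and 0.28 in swr1Δ. OAC1, the oxaloacetate carrier, had 2.55, 1.49, 0.36 and 0.53 in arp6Δ and 0.09, -0.14 and -0.22 in swr1Δ. OAC1 was above all swr1Δ values on all 4 arp6Δ arrays, and CTP1 had the highest mean of the members in arp6Δ, 1.45 ± 1.74, but neither was called (adjusted p = 0.102 for OAC1 and 0.181 for CTP1). DIC1, the dicarboxylate carrier, had a smaller split of 0.26, 0.66, -0.88 and -0.70 in arp6Δ, and in swr1Δ lay between -0.09 and -0.05. SFC1, which exchanges succinate for fumarate, had -0.48 and -0.47 on arp6Δ replicates 3 and 4 and averaged 0.07 ± 0.26 in swr1Δ.

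The oxodicarboxylate carriers ODC1 and ODC2, a pair of paralogues that export 2-oxoglutarate and 2-oxoadipate, lay apart on arp6Δ replicates 1 and 2. ODC1 had log2 ratios of -1.98, 0.03, -2.11 and -1.86 in arp6Δ and of -0.23, 0.14 and 0.38 in swr1Δ. ODC2 had 1.96, 2.12, -1.01 and -1.15 in arp6Δ and -0.14, 0.07 and 0.08 in swr1Δ. On arp6Δ replicate 1 the paralogues lay on opposite sides of 0, and on replicate 2 ODC1 was at 0.03 and ODC2 at 2.12. On replicates 3 and 4 both were low, and in swr1Δ both were near 0. The mean in arp6Δ was -1.48 ± 1.01 for ODC1 (adjusted p = 0.0741) and 0.48 ± 1.81 for ODC2.

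CIT2, ODC2 and YHM2 were above 1 on arp6Δ replicates 1 and 2 and below -1 on replicates 3 and 4, which is 3 of 33 members (9.09%), against 17 of 5691 features with 4 values (0.299%). This division was noticed in the values and then counted, so it is a description with no test. None of these 3 genes lies in a displaced stretch. What else differed between the pairs of arp6Δ arrays is not given in the labels, and its part in the division was not tested.

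**Figure D3:**
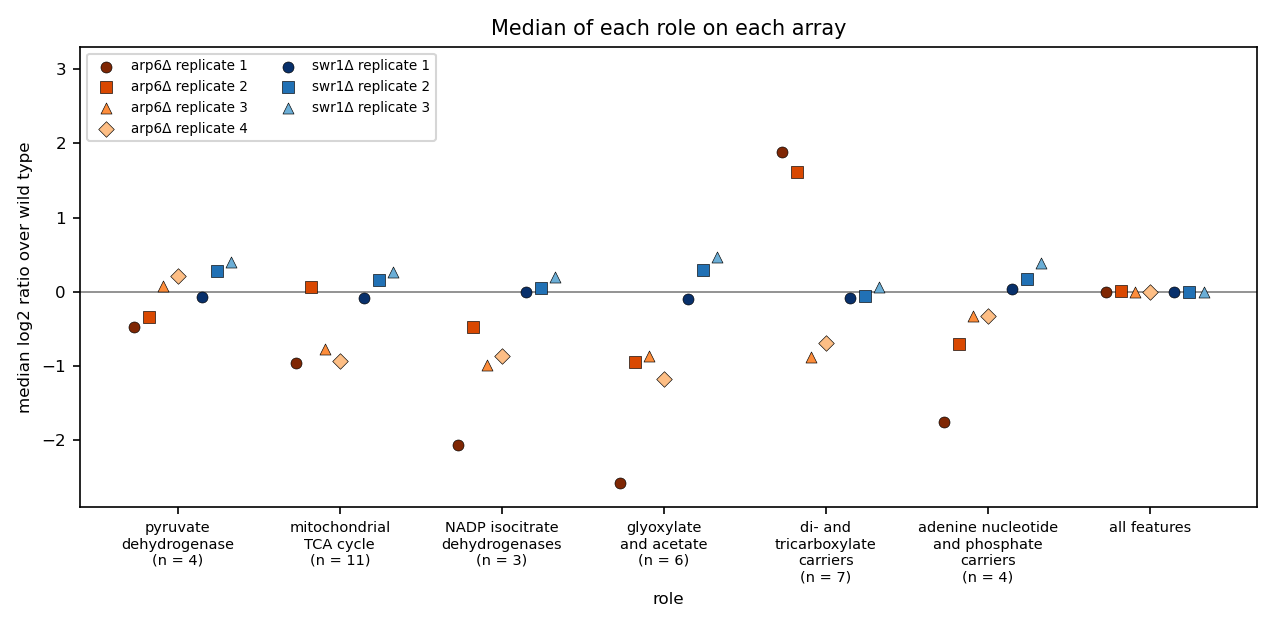
Median log2 ratio over wild type, with values as deposited, of the members of each role, and of all features, on each of the 4 arp6Δ and 3 swr1Δ arrays. The di- and tricarboxylate carriers had medians of 1.88 and 1.61 on arp6Δ replicates 1 and 2, where SFC1 has no value. On replicates 3 and 4 the medians of all 7 were -0.88 and -0.70. The median of the 6 glyoxylate and acetate genes was below 0 on all 4 arp6Δ arrays.

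The ADP/ATP carriers exchange matrix ATP for cytosolic ADP, and PET9 (also called AAC2) is the main one. PET9 had log2 ratios of -2.51, -0.97, -0.46 and -0.76 in arp6Δ and of 0.07, 0.19 and 0.24 in swr1Δ. AAC1, a minor form, had -1.52, -0.16, -0.52 and -0.96 in arp6Δ and -0.31, 0.15 and 0.58 in swr1Δ. PET9 and AAC1 were below wild type on all 4 arp6Δ arrays, with means of -1.17 ± 0.91 (adjusted p = 0.0972) and -0.79 ± 0.59 (adjusted p = 0.122), and the PET9 mean was -0.73 without replicate 1. AAC3, the form induced without oxygen, had 0.92, -2.48, 1.61 and 0.78 in arp6Δ and 0.25, -0.36 and 0.02 in swr1Δ. It was above wild type on 3 arp6Δ arrays and strongly below it on replicate 2. MIR1, the phosphate carrier, was lowest on arp6Δ replicate 1 and had -0.45, -0.19 and 0.11 on the other 3, a mean of -0.63 ± 0.94 that was -0.18 without replicate 1, and averaged 0.37 ± 0.31 in swr1Δ. CRC1, which brings acetyl-carnitine into mitochondria, had -1.67, 0.99, -0.23 and -0.27 in arp6Δ and averaged 0.14 ± 0.05 in swr1Δ. The sign of its arp6Δ mean depended on 1 array, as it was -0.29 ± 1.09 over 4 arrays and 0.16 without replicate 1. The probe sequences were not used here, so how far paralogues such as these, the citrate synthases or the isocitrate dehydrogenases share signal is unknown.

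By role, and with values as deposited, the glyoxylate and acetate genes were the lowest in arp6Δ. Their 6 members had array medians averaging -1.39 ± 0.80 in arp6Δ and 0.23 ± 0.29 in swr1Δ (SD over arrays, n = 4 and n = 3). The 3 NADP-dependent isocitrate dehydrogenase genes had -1.10 ± 0.68 in arp6Δ and 0.08 ± 0.11 in swr1Δ. The 4 adenine nucleotide and phosphate carriers had -0.78 ± 0.68 in arp6Δ and 0.20 ± 0.18 in swr1Δ. The 11 mitochondrial TCA genes had -0.65 ± 0.48 in arp6Δ and 0.11 ± 0.18 in swr1Δ. The 4 pyruvate dehydrogenase genes had -0.13 ± 0.33 in arp6Δ and 0.20 ± 0.24 in swr1Δ. The di- and tricarboxylate carriers spread most over arrays, at 0.48 ± 1.47 in arp6Δ and -0.03 ± 0.08 in swr1Δ. The SDs of neighbouring roles in arp6Δ overlap, so this order is not firm. These medians take ICL1, PDA1 and KGD1 as deposited and were not recomputed with displaced values moved back. Moved back, ICL1 was higher on arp6Δ replicates 1 and 2, at -0.33 and 0.43, so the lowest place of its role may not hold. LPD1, KGD2 and SFC1 do not enter the medians of arp6Δ replicates 1 and 2, where they had no value.

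The contrast of arp6Δ minus swr1Δ asks where the mutants differ from each other. A dye effect common to all arrays drops out of it, and so does the wild type if its RNA was the same, which the labels do not say. Lower in arp6Δ were 4 of 36 members, 11.1%, against 3.9% of all features, and 0 were higher, against 3.13%. They were MDH2 at -1.94 ± 0.31 (SE, adjusted p = 0.0228), KGD2 at -1.86 ± 0.30 (adjusted p = 0.0319), MDH1 at -1.19 ± 0.25 (adjusted p = 0.037) and MDH3 at -1.13 ± 0.25 (adjusted p = 0.0405). At an unadjusted p under 0.05, in either direction, 15 members passed (41.7%), against 28.9% of all features. The median difference of the members was -0.86, against -0.01 for all features. KGD2 rests on 2 arp6Δ arrays. KGD1 differed by -0.89 as deposited (adjusted p = 0.25). With the displaced values moved back, KGD1 rests on 2 arp6Δ arrays as well and was called lower, at -1.66 (adjusted p = 0.0425). Without any 1 swr1Δ array 0 members were called lower, and 3 features in all. Without 1 arp6Δ array the members called lower numbered 8, 7, 1 and 0 in the order of the replicate left out. The shares of all features called lower in these 4 fits were 7.03%, 5.45%, 1.77% and 0.0874%.

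Of the 33 members measured on all 7 arrays, 13 had every arp6Δ value below every swr1Δ value (39.4%), against 15.3% of all such features. These were ACO1, ACS1, FUM1, ICL1, IDP1, IDP2, LSC1, LSC2, MDH1, MDH2, MDH3, MLS1 and PET9. ICL1 is among them only as deposited, since moved back its arp6Δ replicate 2 value of 0.43 lay above the swr1Δ values of 0.24 and 0.33. Moved back, LPD1 also had every arp6Δ value below every swr1Δ value. As deposited, OAC1 was the 1 member with every arp6Δ value above every swr1Δ value (3.03%), against 16.8% of all features. PDA1 joined it when moved back, at 0.46 or above in arp6Δ and at most 0.45 in swr1Δ. As deposited, the rest of the 33 overlapped between the mutants.

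**Figure D4:**
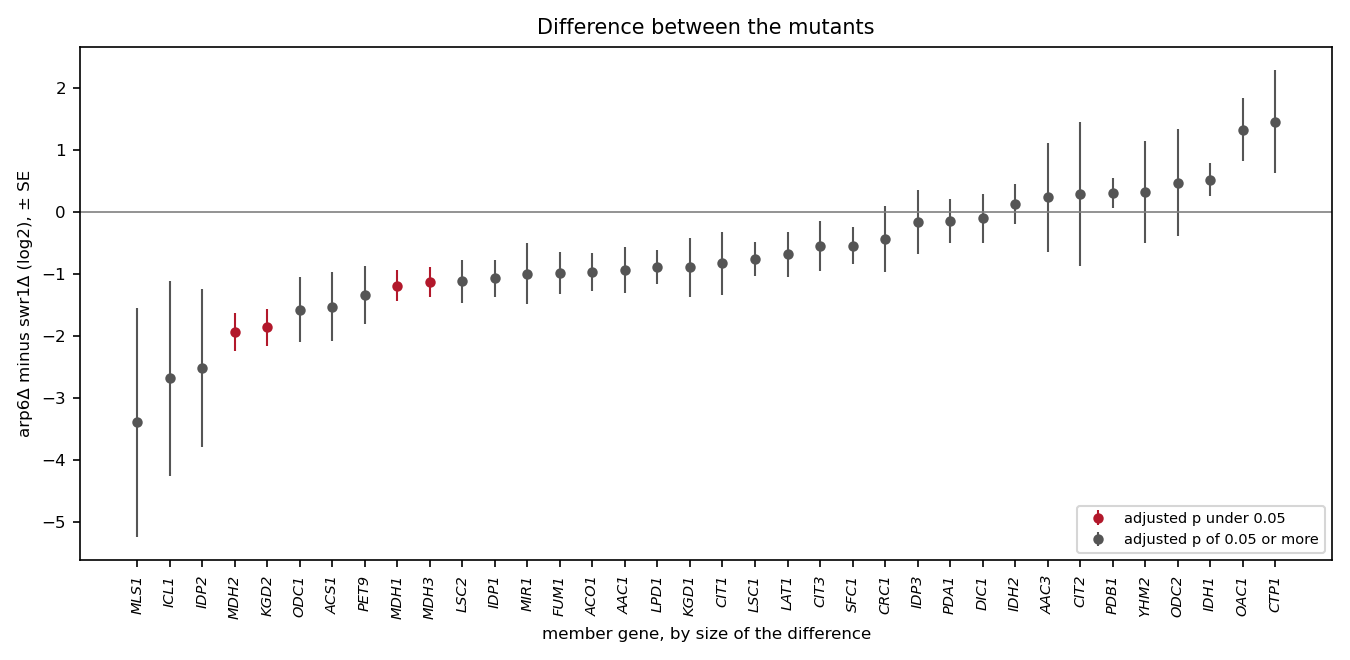
Log2 difference of arp6Δ minus swr1Δ for the 36 members, ordered by size, with bars of ± 1 SE from the fit over all 7 arrays. MDH2, KGD2, MDH1 and MDH3 pass the adjusted threshold at -1.94 to -1.13, whereas MLS1, ICL1 and IDP2 have lower estimates with wide errors.

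Other genes of the same pathways were counted from 4 further lists. Of 17 measured genes for the remaining TCA and pyruvate dehydrogenase subunits and regulators, 2 were lower in arp6Δ (11.8%, against 3.27% of all features) and 0 higher. In swr1Δ 2 were lower and 2 higher, 11.8% each, near the 10.9% and 11.2% of all features. SDH2, the iron-sulphur subunit of succinate dehydrogenase, averaged -1.79 ± 0.90 in arp6Δ (adjusted p = 0.0457) and 0.07 ± 0.33 in swr1Δ. KGD4, a subunit of 2-oxoglutarate dehydrogenase, averaged -1.29 ± 0.25 in arp6Δ (adjusted p = 0.0335) and 0.43 ± 0.06 in swr1Δ (adjusted p = 0.037), so it was called in opposite directions. Like those of the members, the calls of SDH2, KGD4 and ALD4 in arp6Δ were lost with any 1 arp6Δ array left out (adjusted p = 0.0539 to 0.144), and all calls in swr1Δ were lost with a spread shared by both mutants (0.346 for KGD4). KGD4 lies in a displaced stretch, and moved back it had a mean of -1.05 in arp6Δ (adjusted p = 0.0443). SDH4, a membrane anchor of succinate dehydrogenase, was higher in swr1Δ at 0.78 ± 0.44 (adjusted p = 0.0295), and the lower ones there were LIP5, of lipoic acid synthesis, at -0.60 ± 0.10 (adjusted p = 0.0227) and PKP2, a kinase of pyruvate dehydrogenase, at -0.57 ± 0.24 (adjusted p = 0.03). In the contrast, KGD4 and SDH4 were lower in arp6Δ than in swr1Δ, with differences of -1.72 ± 0.23 (adjusted p = 0.0205) and -1.74 ± 0.32 (adjusted p = 0.0292).

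Among 17 further genes of glyoxylate, acetate and gluconeogenic metabolism, 1 was lower in arp6Δ (5.88%, against 3.27% of all features) and 0 higher, against 2.09%. In swr1Δ 0 were lower, against 10.9% of all features, and 2 higher (11.8%, against 11.2%). The median of their means was -1.19 in arp6Δ and 0.14 in swr1Δ. ALD4, the mitochondrial aldehyde dehydrogenase that makes acetate, was the one lower, at -1.46 ± 0.57 in arp6Δ (adjusted p = 0.0389) against 0.22 ± 0.23 in swr1Δ. Its difference between the mutants was -1.68 ± 0.34 (adjusted p = 0.0351). Higher in swr1Δ were ALD6, the cytosolic aldehyde dehydrogenase, at 0.85 ± 0.24 (adjusted p = 0.0221), and the acetate transporter ADY2, at 0.53 ± 0.17 (adjusted p = 0.0298). As with MLS1 and ICL1, replicate 1 held the extreme values of this list, with an array median of -3.32, against -0.97, -0.62 and -0.73 on arp6Δ replicates 2 to 4.

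Of 23 other inner-membrane carriers, 0 were called in arp6Δ, and 0 were lower and 1 higher in swr1Δ (4.35%, against 11.2% of all features). It was YIA6, which carries NAD into mitochondria, at 0.63 ± 0.31 in swr1Δ (adjusted p = 0.0301). The contrast called YIA6 and MPC3, a subunit of the mitochondrial pyruvate carrier, lower in arp6Δ, at -1.09 ± 0.25 (adjusted p = 0.0413) and -1.74 ± 0.42 (adjusted p = 0.0457). YIA6 lies in a displaced stretch, and moved back its difference was -1.24 (adjusted p = 0.12). Of 17 transcriptional regulators of these pathways, 0 were called in arp6Δ, and 2 were lower and 0 higher in swr1Δ, where 11.8% lower is near the 10.9% of all features. They were HAP4, the activating subunit of the factor that drives respiratory genes, at -0.67 ± 0.31 (adjusted p = 0.0272), and MKS1, an inhibitor of the retrograde pathway, at -0.46 ± 0.16 (adjusted p = 0.0382).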

How the data were processed

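The authors deposited normalised log2 ratios, mutant to wild type, with 1 value per probe and array. Their direction was settled from the deleted genes, which read below 0, and their base from the scale on which the study gives its changes. The scanner, background correction and kind of normalisation were not given in the sources. Spot intensities were not analysed here, so signal over background is unknown, and precision is limited by how many arrays there are. Of 6912 probes, 967 had no value on any array, 5446 had 1 gene symbol and 1466 none. Symbols were updated through the RefSeq gene table. The probes of 20 genes were averaged, and a feature entered the tests with 2 or more values in each mutant, giving 5879, with 5763 to 5910 values per array.

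Each mutant's ratios were tested against 0 on its own arrays with lmFit and eBayes (limma 3.58.1, R 4.3.3, 2-sided, Benjamini-Hochberg over all features). The contrast of the mutants used all 7 arrays. The wild type was only the Cy3 channel of each array, so its spread enters the ratios and cannot be told apart from that of the mutant. Without dye swaps a fixed dye effect cannot be told apart from the deletion in the tests against 0. The labels name no cultures, so p-values measure the spread between these arrays. Labels and methods differ on temperature and RNA extraction, and the labels were followed. Displaced stretches were found by setting arp6Δ replicates 1 and 2 against 3 and 4 along the systematic names. In other pairings of arrays 0 stretches were found. Inside them the median log2 ratio of 14 ribosomal protein genes was -0.08 and 0.46 on replicates 1 and 2 as deposited and 1.65 and 0.60 moved back, against 1.47 and 0.59 for 104 outside.

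Named with values in every array were called members, isozyme sets and the members with the highest and lowest mean. Of the other lists at most 4 called genes were named in each mutant, with those called in the contrast added after their values were seen, and 5 of their genes with no named probe were not analysed here. Members, lists and tests were chosen with earlier results of these data known. Fits were tested on simulated data. Alternatives were a shared spread, scaled arrays, array weights, complete features, first probes, each array left out, pairs of arrays, the methods' t-test, displaced values moved back and a replicate block. Tables and plots used Python 3.11.15 with pandas 2.3.3 and matplotlib 3.10.9.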

Additional observations from a re-analysis of the deposited data

Results flagged for a closer look

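In 5 of the 33 members measured on all 4 arp6Δ arrays, 1 array lay far from the other 3, by a limit that chance passes in about 1 group in 20. IDP2 was at -6.45 on replicate 1, ICL1 at -7.34 on replicate 1, and FUM1 at -1.71 on replicate 1. LSC2 was at 0.0059 on replicate 2 and ODC1 at 0.0292 on replicate 2, each with the other 3 arrays below -1. Replicate 1 is also the array with the most values beyond 2-fold over all features, 40.2%.

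The mutants differed by the test of the contrast for MDH2 (-1.94 on the log2 scale, arp6Δ minus swr1Δ), KGD2 (-1.86), MDH1 (-1.19) and MDH3 (-1.13). A further 4 members were below wild type on every arp6Δ array and above it on every swr1Δ array without passing that test. The share of all features with this pattern was not counted, so whether it is more frequent among the members is unknown. MLS1 differed by -3.39 (adjusted p = 0.255), ICL1 by -2.69 (0.289) as deposited, IDP2 by -2.52 (0.225) and PET9 by -1.34 (0.106). With the displaced stretch moved back, ICL1 was above wild type on arp6Δ replicate 2, and its difference was -0.60 (0.21).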

How the results depend on the processing

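Counts of members called depended on the fit, as did the share of all features called, given here in parentheses for lower and then higher calls. In arp6Δ, 3 lower and 0 higher (3.27% and 2.09%) became 13 and 2 with both mutants in 1 fit (13.6% and 13.2%), 8 and 1 with scaled arrays (7.42% and 6.33%), 17 and 1 with array weights (20.4% and 18.6%), 7 and 1 by the methods' t-test (10.5% and 10.7%, with 0 lower after adjustment), 5 lower with displaced values moved back (4.02%) and 0 lower with arrays in pairs (0.357%). Leaving out 1 array gave 0 lower each time, with 17, 16, 14 and 12 members at an unadjusted p under 0.05, in either direction, in the order of the replicate left out (27.5%, 24.9%, 22.8% and 21.0% of features). Chosen after seeing the data, replicates 3 and 4 alone gave 22 lower and 3 higher (22.9% and 20.5%), and replicates 1 and 2 alone gave 2 lower and 5 higher (4.69% and 3.26%). CIT2, ODC2 and YHM2 had means of 2.50, 2.04 and 1.77 on replicates 1 and 2 and of -1.62, -1.08 and -1.18 on replicates 3 and 4. These genes were picked for that division of the same arrays, so calls of them by these fits are no test of it.

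In swr1Δ, 1 lower and 0 higher (10.9% and 11.2%) became 0 lower in 1 fit with arp6Δ and by the adjusted t-test, which called 0 features, 2 higher with scaled arrays (13.3%), and 3 lower and 17 higher with array weights (34.6% each). Without 1 array the swr1Δ counts were 0 to 1 lower and 0 to 14 higher, the 14 without replicate 1 (27.1%). In the contrast, 4 lower and 0 higher (3.9% and 3.13%) became 7 lower with scaled arrays (9.39%) and 24 and 2 with array weights (26.1% and 25.2%). The contrast with arp6Δ replicates 3 and 4 alone gave 21 and 1 (20.8% and 18.4%). Leaving out 1 array gave 0 to 8 lower in the contrast (0.0516% to 7.03%). With displaced values moved back the contrast called 5 lower (3.97%), KGD1 among them. The medians of the members moved by less than the SD of the array medians. MDH1, MDH2, MDH3, KGD2 and IDP3 kept the direction of their calls under every alternative that gave them a value.

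With the replicate number as a block, the contrast called 0 members and 2 features. Same-numbered arrays did not deviate together, as the correlations of their deviations were 0.05, 0.05 and -0.08. With so few arrays, these correlations cannot show whether same-numbered arrays shared a batch or wild-type RNA. No intensities were used, so how far low signal limits values such as -8.84 for MLS1 is unknown.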
